A study of Mus musculus with 38 samples.

Results

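Salt and water cross the colon epithelium through a small set of membrane proteins, and 10 of their genes were followed here in 38 RNA-seq libraries of mouse intestine. The genes were chosen by name, out of 21441 in the tables: Scnn1a, Scnn1b and Scnn1g, the subunits of the epithelial sodium channel; Slc9a2 and Slc9a3, apical sodium-proton exchangers; Slc26a3, the apical chloride-bicarbonate exchanger; the carbonic anhydrases Car1 and Car4; the water channel Aqp8; and the chloride channel Cftr. All mice were wild-type C57BL6/J animals made vitamin D deficient, so neither group had a normal vitamin D supply before the injection. They were injected into the peritoneum with 1,25(OH)2D3, the active hormone (10 ng per g body weight), or with 0.1 ml of vehicle (propylene glycol with ethanol), and tissue was taken 4 h later. There were 7 vitamin D and 6 vehicle libraries of colon, 6 and 6 of crypts, and 7 and 6 of villi. Colon epithelium was scraped from the whole colon, so proximal and distal colon are mixed in each library. Crypts and villi came from the proximal small intestine, released with EDTA and separated by filtering. The labels give the sexes as pooled and the age as 10 to 13.3 weeks in one field and 12 to 14 weeks in another. No source used here states how many mice went into 1 library, so the p-values below measure the spread between libraries, which may be partly technical.

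As background, the colon takes up sodium by exchange and through a channel. Slc9a3 and Slc9a2 exchange luminal sodium for protons and work beside Slc26a3, which takes up chloride for bicarbonate; inherited loss of SLC26A3 in humans causes congenital chloride diarrhoea. Car1 in the cytosol and Car4 on the apical membrane supply and consume the protons and bicarbonate for this exchange. In distal colon, aldosterone acts through the mineralocorticoid receptor (Nr3c2) and the kinase Sgk1 to raise sodium entry through the channel made of the Scnn1a, Scnn1b and Scnn1g subunits, while the ubiquitin ligase Nedd4l removes the channel from the membrane. Chloride leaves through Cftr, mostly in crypts, and water follows salt, with Aqp8 as a water channel of surface colonocytes.

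Scnn1b and Scnn1g, whose levels moved together over the colon libraries (r = 0.87), lie next to each other on chromosome 7, with their starts 130.559 kb apart and no other coding gene between them in RefSeq. Their upstream windows are shown because the pair moved together. Each holds the 250 bases before the annotated start on the + strand of GRCm38.p6, chr7:121734229-121734478 and chr7:121864788-121865037, from RefSeq. No letters are in capitals, because none of the motifs searched matched.
Scnn1g: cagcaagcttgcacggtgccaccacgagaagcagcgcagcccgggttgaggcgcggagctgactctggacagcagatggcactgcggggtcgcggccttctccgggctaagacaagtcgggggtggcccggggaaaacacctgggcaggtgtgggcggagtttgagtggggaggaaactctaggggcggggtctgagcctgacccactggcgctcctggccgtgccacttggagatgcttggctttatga
Scnn1b: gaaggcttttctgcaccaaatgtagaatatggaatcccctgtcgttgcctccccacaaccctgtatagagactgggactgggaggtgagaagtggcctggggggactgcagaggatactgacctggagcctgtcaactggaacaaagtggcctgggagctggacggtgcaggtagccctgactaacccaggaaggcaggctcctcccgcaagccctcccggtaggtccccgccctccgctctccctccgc
The Scnn1g window was 65.2% G or C with 16 CpG dinucleotides, and the Scnn1b window 60.8% with 7. The motifs searched on both strands were the vitamin D receptor DR3 element, the CDX core TTTATNG, the glucocorticoid receptor element (AGAACA, any 3 bases, TGTTCT) and the TATA box TATAAA. They occurred in 0.0396%, 9.81%, 0.00913% and 12.4% of the 32851 windows of the table. Windows were found for 7 of the 10 genes; Scnn1a, Slc9a2 and Car1 were not matched.

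The libraries held 13.8 M to 17.5 M reads, read from the steps between low FPKM values. FPKM is a fragment number scaled by transcript length and library size, so levels can be set side by side between genes. The hormone acted in all 3 tissues by the measure of Cyp24a1, the hydroxylase that degrades it, with log2 fold changes of 9.11 ± 0.88 (SE) in colon, 11.37 ± 0.48 in crypts and 10.53 ± 0.83 in villi. Defining markers fitted the labelled tissues: 7 posterior Hox genes of colon position summed to 89.1 to 211 FPKM in vitamin D colon and 158 to 302 in vehicle colon, and to no more than 1.92 in any small intestinal library. Some libraries stood apart. Vitamin D colon replicates 1 and 2 held smooth muscle and fibroblast genes (9 of 9 measured) at a summed 2616 and 9010 FPKM, against 23.3 to 466 in the vehicle colon libraries. Paneth cell genes (6 measured) summed to 92.2 to 534 FPKM in the vitamin D colon libraries, against 2547 FPKM in vehicle colon replicate 5 and no more than 800.5 FPKM in the other vehicle libraries. Vitamin D villi replicate 7 and vehicle villi replicate 6 held Car1 at 51.6 and 75.9 FPKM. Fold changes of the 10 genes in colon and of those tested in villi are given with and without these libraries, and that of Cyp24a1 was 8.41 ± 0.98 in colon and 11.62 ± 0.27 in villi without them. Fold changes are on the scale of log2(FPKM + 0.5), which understates the change of low genes, and a gene was called at an adjusted p below 0.05.

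The regional levels of the 10 genes differed, as seen in the plot of levels in 3 tissues. Scnn1b, Scnn1g and Aqp8 were near absent from the small intestine. Car1 was far lower there than in colon, but averaged 11.8 FPKM in vitamin D villi and 18.9 FPKM in vehicle villi. Scnn1a, Slc26a3 and Car4 were several-fold higher in colon than in either small intestinal tissue. The mean of Slc9a2 in colon was 4.01 and 4.35 times that in crypts with vitamin D and with vehicle, and that of Slc9a3 was 4.52 and 3.36 times, with villi in between; Cftr varied least between tissues. The mean was highest in colon for 9 of 10 genes in both treatments, and Cftr was highest in crypts. The tables of the tissues were normalised separately, so these orders carry no test here; tests between tissues come from the authors' deposited tables, which compare vitamin D treated libraries only. Those tables called 7 of 10 genes higher in colon than in villi and 9 of 10 higher in colon than in crypts, where 64.7% and 56.5% of all genes were called in either direction. Of 8 genes with an adjusted p between crypts and villi, they called 1 higher and 5 lower in crypts, against 61.9% of all genes called in either direction. On the FPKM scale, the colon stood higher against villi by a median log2 of 0.68 over all genes than in the deposited table, and against crypts by 0.08.

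**Figure D1:**
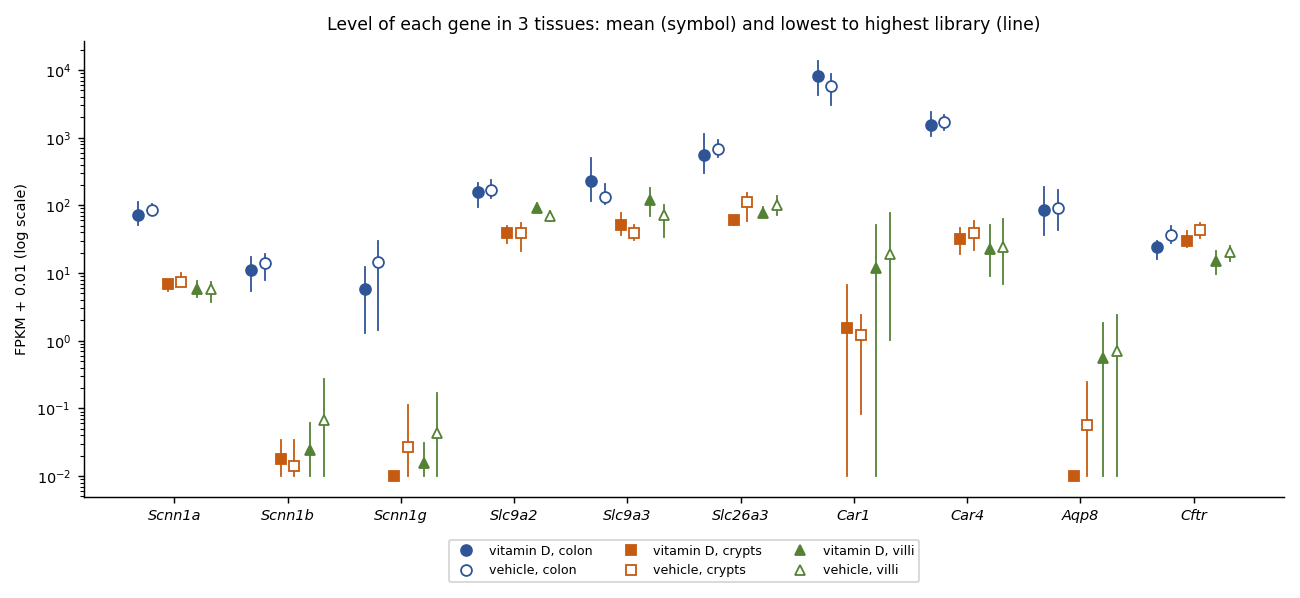
FPKM + 0.01 on a log axis for each of the 10 genes in colon, crypts and villi; filled symbols are vitamin D means, open symbols vehicle means, and lines run to the lowest and highest library. Scnn1b, Scnn1g, Car1 and Aqp8 lie far lower in crypts and villi than in colon, Slc9a2 and Slc9a3 lie lowest in crypts, and Cftr lies close together in the 3 tissues.

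Among the sodium channel genes, the alpha subunit Scnn1a averaged 71.9 ± 19.8 FPKM in vitamin D colon and 86.4 ± 10.4 in vehicle colon (SD), 6.82 ± 0.95 in vitamin D crypts and 7.43 ± 1.25 in vehicle crypts, and 5.77 ± 1.00 in vitamin D villi and 5.89 ± 1.31 in vehicle villi. In the authors' deposited table colon exceeded villi by 2.94 and crypts by 3.32 on the log2 scale, while the difference of crypts from villi did not pass (-0.25, adjusted p = 0.109). The pore also needs the beta and gamma subunits. Scnn1b averaged 11.2 ± 4.6 FPKM in vitamin D colon and 13.8 ± 4.4 in vehicle colon, and no crypt or villus library exceeded 0.267 FPKM. Scnn1g was listed at 0 in all 6 vitamin D crypt libraries, in 5 of 6 vehicle crypt libraries, in 5 of 7 vitamin D villus libraries and in 3 of 6 vehicle villus libraries. Thus alpha transcripts were measured at 3.76 to 9.92 FPKM in every small intestinal library, while beta and gamma stood at or near 0 there.

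Subunit proportions differed between colon libraries. In colon, Scnn1g amounted to 2.06% to 13.4% of the Scnn1a level over the 7 vitamin D libraries and to 1.79% to 36.7% over the 6 vehicle libraries. The share of Scnn1b was 8.92% to 25.9% in the vitamin D and 9.77% to 23.7% in the vehicle libraries. Scnn1a was the most abundant subunit in all 13 libraries. Scnn1g exceeded Scnn1b in vehicle replicates 1 to 4 and in none of the other 9.

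For the exchangers, Slc26a3 averaged 550.0 ± 270 FPKM in vitamin D colon and 688 ± 161 in vehicle colon, against 60.1 ± 7.2 and 113 ± 35 in vitamin D and vehicle crypts and 77.8 ± 9.9 and 101 ± 28 in vitamin D and vehicle villi. Its colon excess over villi was 2.12 on the log2 scale and over crypts 3.12 in the authors' deposited table. Slc9a2 and Slc9a3 were different. Slc9a2 averaged 159 ± 49 FPKM in vitamin D colon, 39.6 ± 7.2 in vitamin D crypts and 92.4 ± 9.6 in vitamin D villi; Slc9a3 averaged 232 ± 150, 51.4 ± 18.1 and 119 ± 39 in the same groups. Both exceeded crypts in colon (log2 1.93 and 2.10), but the deposited table did not separate colon from villi (0.08, adjusted p = 0.708, for Slc9a2 and 0.26, adjusted p = 0.505, for Slc9a3), although the mean FPKM in colon was 1.72 and 1.95 times that in villi. The size of the gap between colon and villi for these exchangers depended on the scaling.

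Car1 was the most abundant of the 10 transcripts, at 8130 ± 3070 FPKM in vitamin D colon and 5873 ± 2382 in vehicle colon. In crypts it averaged 1.54 ± 2.55 FPKM with vitamin D and 1.21 ± 0.93 with vehicle. In villi it averaged 11.8 ± 18.1 FPKM with vitamin D and 18.9 ± 28.8 with vehicle. Membrane-bound Car4 averaged 1543 ± 477 FPKM in vitamin D colon and 1714 ± 342 in vehicle colon, and was lower but present in crypts (32.3 ± 9.3 with vitamin D and 39.1 ± 12.9 with vehicle) and villi (22.3 ± 14.4 with vitamin D and 24.5 ± 21.4 with vehicle). Aqp8 averaged 86.0 ± 53.3 FPKM in vitamin D colon and 92.1 ± 60.1 in vehicle colon, was listed at 0 in all 6 vitamin D crypt libraries, and reached 2.39 FPKM at most in villi. Cftr averaged 24.1 ± 5.0 and 36.3 ± 8.6 FPKM in vitamin D and vehicle colon, 29.7 ± 6.1 and 43.7 ± 8.8 in vitamin D and vehicle crypts, and 15.1 ± 4.1 and 20.4 ± 3.4 in vitamin D and vehicle villi. For Cftr the deposited table gave colon lower than crypts (log2 -0.38, adjusted p = 0.0306), crypts higher than villi (0.48, adjusted p = 0.0185), and called no difference of colon from villi (-0.03, adjusted p = 0.913).

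Vitamin D villi replicate 7 had Car1 and Aqp8 at 0.878% and 1.83% of their mean in vehicle colon, and Scnn1b and Scnn1g at 0.167% and 0.140%. Vehicle villi replicate 6 was the villus library with the highest level of all 4 genes, at 1.29%, 2.60%, 1.93% and 1.08%. Vitamin D villi replicate 5 exceeded vitamin D replicate 7 for Aqp8 (1.99%) and Scnn1b (0.371%), but not for Car1 (0.227%) or Scnn1g (0%). Replicate 5 was kept when the libraries of high Car1 were left out. The colon position genes summed to 1.35 FPKM in vitamin D villi replicate 7 and to 1.92 FPKM in vehicle villi replicate 6, the highest of their groups. Vehicle villi replicate 6 also held Cyp24a1 at 62.2 FPKM, or 1.84% of the mean of the vitamin D villus libraries. The other vehicle villus libraries held 0.055 to 1.33 FPKM. Vehicle crypts replicate 5 held Cyp24a1 at 7.35 FPKM, or 0.203% of the mean of the vitamin D crypt libraries. The other vehicle crypt libraries held 0.184 to 0.912 FPKM. The part of colon RNA or of RNA from treated tissue in these libraries was not tested.

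In colon, none of the 10 genes passed the test for a response to vitamin D. Limma called 0 of 10, against 0.823% of the 11540 genes tested, and 1 of 10 had an unadjusted p under 0.05, against 8.05%. The authors' deposited table called 1 of 10, Cftr, against 1.64%. All 10 passed the filter on low values; 8 had a negative and 2 a positive log2 fold change, with a median of -0.24, while the median over all genes tested was 0.00. In bulk epithelium, fewer cells of a type and less RNA per cell cannot be told apart. The values of each library are shown in the plot of the 10 genes in colon.

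**Figure D2:**
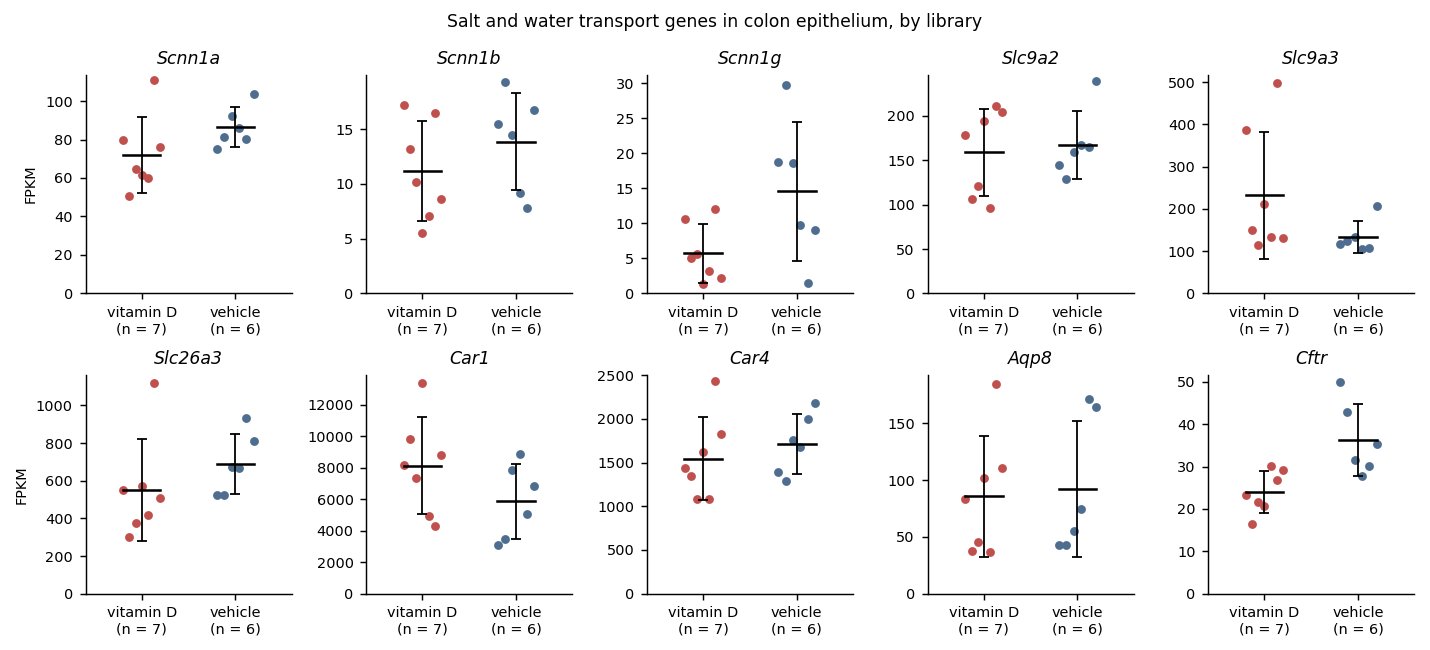
FPKM of the 10 genes in the 7 vitamin D and 6 vehicle colon libraries, 1 point each, with the mean and SD in black; every axis starts at 0. The groups overlap for all 10 genes, and the share of all genes with overlap was not counted. For Cftr, 5 of 7 vitamin D libraries lie below the lowest vehicle library.

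Cftr, the secretory channel, came nearest. It ranged over 16.3, 23.4 and 30.2 FPKM (lowest, median and highest) in vitamin D colon and over 27.8, 33.4 and 49.96 FPKM in vehicle colon. Vitamin D replicates 5 and 7 lay within the vehicle range and the other 5 below it. The log2 fold change was -0.58 ± 0.16 (SE; adjusted p = 0.183), and -0.59 ± 0.17 with an adjusted p of 0.0427 in the authors' deposited table. Without vitamin D replicates 1 and 2 and vehicle replicate 5 it was -0.52 (adjusted p = 0.413).

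The gamma subunit Scnn1g had the largest difference in size. It stood at 1.27, 5.01 and 12.1 FPKM in vitamin D colon and at 1.44, 14.2 and 29.9 FPKM in vehicle colon. Each vitamin D library lay below the vehicle median, and vehicle replicates 1, 2 and 3, at 18.7 to 29.9 FPKM, lay above every vitamin D library. Yet vehicle replicate 5 was almost as low as the lowest vitamin D library, so the difference of -1.17 ± 0.61 did not pass (adjusted p = 0.684). It was -1.94 (adjusted p = 0.223) without vitamin D replicates 1 and 2 and vehicle replicate 5, and -1.35 ± 0.57 (adjusted p = 0.298) in the authors' deposited table. Scnn1b, at 5.49, 10.2 and 17.2 FPKM with vitamin D against 7.84, 15.0 and 19.3 FPKM with vehicle, had a difference of -0.33 ± 0.28 (adjusted p = 0.868), and -0.68 (adjusted p = 0.602) without those 3 libraries. Scnn1a, at 50.6, 64.4 and 111 FPKM with vitamin D against 75.1, 83.5 and 104 FPKM with vehicle, had -0.30 ± 0.15 (adjusted p = 0.682). For Scnn1a, 4 of 7 vitamin D libraries lay below all vehicle libraries and replicate 6 lay above them all.

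Slc9a3, the main absorptive sodium-proton exchanger, stood at 114, 151 and 497 FPKM in vitamin D colon and at 106, 121 and 207 FPKM in vehicle colon. Vitamin D replicates 1, 4 and 6, at 211 to 497 FPKM, exceeded every vehicle library, and the other 4 lay among them; the difference was 0.62 ± 0.33 (adjusted p = 0.702). Slc26a3 ran the other way, at 300.4, 511 and 1121 FPKM with vitamin D and 523, 670 and 934 FPKM with vehicle (-0.41 ± 0.25, adjusted p = 0.795). Vitamin D replicate 6 held the highest Slc26a3 of all 13 libraries, while 4 vitamin D libraries lay below every vehicle library. Car1 differed by 0.49 ± 0.31, Car4 by -0.18 ± 0.20, Slc9a2 by -0.11 ± 0.21 and Aqp8 by -0.08 ± 0.45, with adjusted p of 0.800 to 0.983. For Aqp8, an interval of 2 SE ran over -0.98 to 0.81. Without vitamin D replicates 1 and 2 and vehicle replicate 5, the differences were 0.46 for Slc9a3, -0.19 for Slc26a3, 0.37 for Car1, -0.092 for Car4, -0.056 for Slc9a2, 0.30 for Aqp8 and -0.26 for Scnn1a, with an adjusted p of 0.910 or more.

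In small intestinal crypts, Slc26a3 and Cftr were the 2 genes with the smallest p, both lower with vitamin D. Limma called 0 of the 6 genes that passed the filter, against 1.46% of 10733 genes; 2 of 6 had an unadjusted p under 0.05, against 15.3%. Replicate numbers were taken to pair the crypt libraries, which no label used here states, and 6 of 12 correlated best with their own number. A fit with that number as a block called 2 of 6, both lower. Of all genes it called 4.14% in either direction and 1.82% lower. The authors' deposited table called the same 2, out of 7 with an adjusted p, against 4.28%. Scnn1b, Scnn1g, Car1 and Aqp8 were below the filter. The windows before the starts of these 2 genes, chr12:31437969-31438218 and chr6:18170437-18170686 on the + strand of GRCm38.p6, from RefSeq, are shown because both fell in the paired fit; capitals mark a TATA box match.
Slc26a3: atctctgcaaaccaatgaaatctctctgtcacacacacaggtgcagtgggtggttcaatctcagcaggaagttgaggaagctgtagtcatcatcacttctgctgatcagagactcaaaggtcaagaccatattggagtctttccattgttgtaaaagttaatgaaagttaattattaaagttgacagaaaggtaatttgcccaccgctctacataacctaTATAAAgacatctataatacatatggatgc
Cftr: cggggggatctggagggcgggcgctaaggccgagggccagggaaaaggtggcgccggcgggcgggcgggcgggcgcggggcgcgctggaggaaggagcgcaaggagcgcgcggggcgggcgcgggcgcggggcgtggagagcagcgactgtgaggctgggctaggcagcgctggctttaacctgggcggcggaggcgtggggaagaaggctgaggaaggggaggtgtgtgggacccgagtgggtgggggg
The windows differ in base composition. That of Slc26a3 was 38.8% G or C with 1 CpG and held TATAAA at 30 to 25 bases before the start, a motif of 12.4% of all windows. That of Cftr was 76.4% G or C with 30 CpG and held none of the 4 motifs. The vitamin D receptor DR3 element matched in none of the 7 windows, which says only that these letters are not in the 250 bases shown or searched.

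Slc26a3 stood at 51.7, 61.8 and 67.1 FPKM in vitamin D crypts and at 58.3, 114 and 153 FPKM in vehicle crypts. All 6 vitamin D libraries were below the vehicle median, and vehicle replicate 4 alone fell among them, while the other 5 vehicle libraries lay above every vitamin D library. The log2 fold change was -0.85 ± 0.20, or 0.556-fold, with an adjusted p of 0.0594, and of 0.0377 in the block fit; without vehicle replicate 4 it was -1.02 (adjusted p = 0.00151), in a fit that called 9.91% of all genes. The authors' deposited table gave -0.91 (adjusted p = 0.000708). Cftr stood at 24.0, 28.4 and 41.3 FPKM with vitamin D and at 33.1, 42.8 and 55.4 FPKM with vehicle. Only vitamin D replicate 2 reached into the vehicle range. Its log2 fold change was -0.55 ± 0.15, with an adjusted p of 0.109, and of 0.0224 in the block fit; without vehicle replicate 4 the adjusted p was 0.0226, without vitamin D replicate 2 it was 0.0496 (0.993% of all genes called), and the authors' deposited table gave 0.0251.

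The crypt libraries differed in their level of enterocyte genes. Of 10 small intestinal enterocyte genes, all measured, the summed level was 6265 to 23409 FPKM in vitamin D crypts and 4586 to 38867 FPKM in vehicle crypts, lowest in vehicle replicate 4, where Slc26a3 was also lowest among vehicle libraries. Over the 12 crypt libraries Slc26a3 correlated with the summed crypt base and cell division genes at r = -0.76 (permutation p = 0.0040) and rho = -0.69 (p = 0.0158), and r was -0.80 within groups and -0.65 without the 2 libraries farthest from the median of Slc26a3. Adjusted over 54 relations, p was 0.0443 for r and 0.107 for rho. With the enterocyte sum r was 0.67 (permutation p = 0.0178, adjusted p = 0.120) and rho 0.72 (p = 0.0103, adjusted p = 0.0924), and r was 0.57 without the 2 farthest libraries. For Cftr, r was -0.28 with the crypt base sum (permutation p = 0.371) and 0.13 with the enterocyte sum (permutation p = 0.677). Their part in the lower Slc26a3 was not tested. The other 4 genes did not pass: Slc9a3 had 0.34 ± 0.21, Slc9a2 0.08 ± 0.21, Scnn1a -0.11 ± 0.12 and Car4 -0.26 ± 0.24, with adjusted p of 0.487 to 0.878.

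In villi the sodium-proton exchanger Slc9a2 was called higher with vitamin D, but the call did not hold in all fits. Limma called 1 of the 7 genes that passed the filter, against 2.47% of 9706 genes called and 2.17% called higher; 4 of 7 had an unadjusted p under 0.05, against 12.2%. Replicate numbers were taken to pair the villus libraries, which no label used here states, and 7 of 12 correlated best with their own number. With that number as a block, 3 of 7 genes passed, against 3.51%. Slc9a2 and Slc9a3 were higher, against 2.97%, and Cftr lower, against 0.546%. The authors' deposited table called Slc9a2 alone of 8 with an adjusted p, against 3.6%. Scnn1b, Scnn1g and Aqp8 were below the filter.

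Slc9a2 stood at 83.7, 88.7 and 108 FPKM in vitamin D villi and at 58.6, 70.7 and 81.8 FPKM in vehicle villi. All 7 vitamin D libraries were above all 6 vehicle libraries, but the share of all genes without overlap was not counted. The rise was 0.39 ± 0.09 on the log2 scale, or 1.31-fold, with an adjusted p of 0.0401 and of 0.0137 with the block. The call did not hold in 9 of 13 fits without 1 library (vitamin D replicates 1 to 5, or vehicle replicates 1, 3, 5 or 6), with the adjusted p highest, at 0.0933, without vehicle replicate 6. Without vitamin D replicate 7 and vehicle replicate 6, the libraries of high Car1, the log2 fold change was 0.36 (adjusted p = 0.0943), and 1.77% of all genes were called. Without these 2 libraries the differences were 0.63 for Slc9a3, -0.56 for Cftr, -0.35 for Slc26a3, 0.22 for Car4, 0.015 for Scnn1a and -0.50 for Car1, with adjusted p of 0.193 to 0.994.

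Slc9a3 stood at 70.1, 104 and 179 FPKM in vitamin D villi and at 34.5, 77.9 and 101 FPKM in vehicle villi. Of the vitamin D libraries 4 exceeded every vehicle library, and vehicle replicates 3, 5 and 6 lay below every vitamin D library. The log2 fold change was 0.82 ± 0.30 (adjusted p = 0.239), and 0.79 ± 0.15 (adjusted p = 0.0270) with the block and 0.93 (adjusted p = 0.0586) when pairs were taken from the column names. Cftr stood at 9.73, 15.2 and 21.2 FPKM with vitamin D and at 15.0, 21.0 and 25.2 FPKM with vehicle, a difference of -0.45 ± 0.17 (adjusted p = 0.269), and of -0.54 ± 0.10 (adjusted p = 0.0240) with the block and -0.44 (adjusted p = 0.191) when pairs were taken from the column names. That pairing called 1 of 7 genes, Slc9a2, against 2.68% of all genes. Slc26a3, at 66.8, 73.0 and 93.3 FPKM with vitamin D against 72.8, 90.7 and 137 FPKM with vehicle, had -0.35 ± 0.15 (adjusted p = 0.357). Car4 differed by 0.07 ± 0.50 and Scnn1a by -0.01 ± 0.15. Car1 ranged over 0 to 51.6 FPKM with vitamin D and 1.02 to 75.9 FPKM with vehicle, with vitamin D replicate 7 and vehicle replicate 6 highest, and its difference of -0.61 ± 1.10 had an SE larger than itself.

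**Figure D3:**
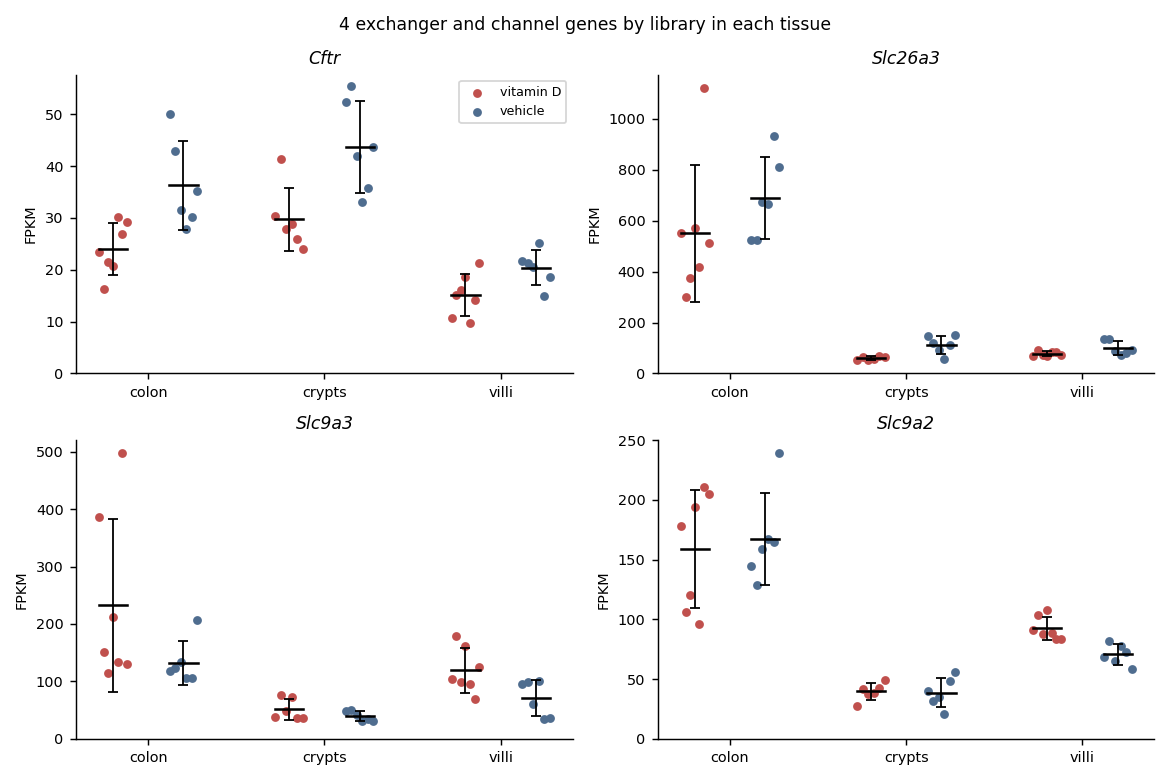
FPKM of Cftr, Slc26a3, Slc9a3 and Slc9a2 by library in colon, crypts and villi, vitamin D in red and vehicle in blue, with the mean and SD in black; every axis starts at 0. The Cftr mean is lower with vitamin D in each tissue, and in villi every vitamin D library lies above every vehicle library for Slc9a2. The share of all genes without overlap was not counted.

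None of the 10 genes was called as differing in response between tissues. In 1 fit over all 38 libraries, limma called 0 of 10 for colon minus villi, against 0.467% of 11990 genes, 0 of 10 for colon minus crypts, against 0.158%, and 0 of 10 for crypts minus villi, against 0.0667%; at an unadjusted p under 0.05 these counts were 0, 1 and 0, against 8.22%, 4.69% and 5.71%. These differences share libraries with each other. The fit took libraries of different tissues as independent. The labels used here do not state whether tissues came from the same mice, and such a pairing did not enter these SEs and p-values. Scnn1g had the smallest p, with a response lower in colon than in villi by -1.10 ± 0.55 on the log2 scale (adjusted p = 0.608) and than in crypts by -1.13 ± 0.56 (adjusted p = 0.995), where it was at or near 0 in both small intestinal tissues. For Cftr the response was -0.58, -0.55 and -0.45 in colon, crypts and villi. Its differences were -0.13 ± 0.24 for colon minus villi, -0.03 ± 0.24 for colon minus crypts and -0.10 ± 0.24 for crypts minus villi, with intervals of 2 SE over -0.61 to 0.34, -0.52 to 0.45 and -0.58 to 0.39. For Slc26a3, crypts minus villi was -0.50 ± 0.31 (adjusted p = 0.792).

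**Figure D4:**
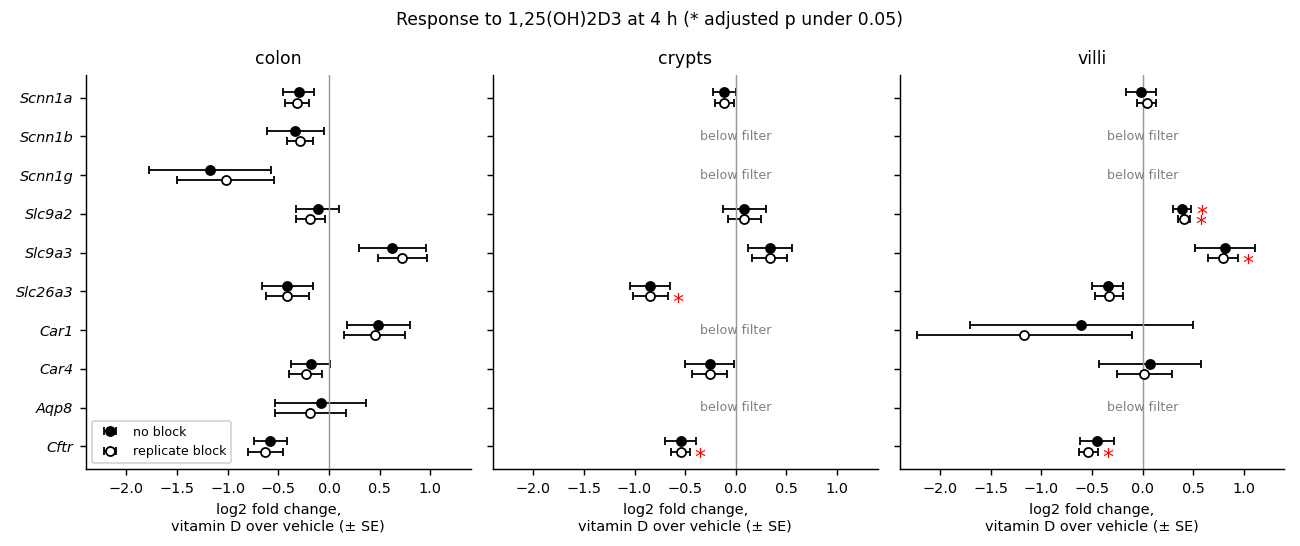
Log2 fold change of vitamin D over vehicle with its SE for each gene and tissue, without a block (filled) and in the fit blocked by replicate number (open); a red star marks an adjusted p below 0.05. In colon no gene carries a star; in crypts Slc26a3 and Cftr carry one with the block, and in villi Slc9a2 carries one in both fits and Slc9a3 and Cftr with the block.

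By r over all 13 colon libraries, 7 of the 10 genes fell into 2 sets, and Slc9a3, Car1 and Cftr into neither. Of 45 pairs, 11 had an adjusted permutation p below 0.05 for Pearson's r (100000 resamples). The share of pairs among all genes with such a p was not counted. Slc9a2, Slc26a3, Car4 and Aqp8 were high and low in the same libraries, with r of 0.74 to 0.89 for all 6 pairs on log2(FPKM + 0.5). The tightest was Car4 with Aqp8 (r = 0.89, permutation p = 5.0e-05; rho = 0.91, p = 2.0e-05), where r was 0.84 without the 2 libraries farthest from the median and 0.91 within treatment groups. Scnn1a joined this set with Slc26a3 (r = 0.86, rho = 0.83, permutation p = 2.3e-04 and 7.3e-04; r = 0.71 without the 2 farthest). The summed level of 11 surface colonocyte differentiation genes followed the same libraries, with r of 0.94 for Slc9a2 (rho = 0.95; permutation p = 1e-05 for both, the smallest they can give), 0.87 for Aqp8 and 0.86 for Car4. The part of cell composition in this was not tested. Vehicle replicates 5 and 6 and vitamin D replicates 6 and 7 have column names with a leading number. They held Aqp8 at 111 to 185 FPKM and Car4 at 1821 to 2434 FPKM. In the other colon libraries Aqp8 reached 102 FPKM at most and Car4 1755 FPKM. For Slc9a2 and Slc26a3 the 2 kinds of library overlapped. Neither the permutations nor r within treatment groups took name style into account, and its part was not tested. Within treatment groups Slc9a3 had r of 0.76 with Scnn1a, 0.71 with Slc26a3, 0.63 with Slc9a2, 0.62 with Car4 and 0.56 with Aqp8. Over all 13 libraries these were 0.37, 0.39, 0.48, 0.42 and 0.48. The values within groups were not tested.

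The other set was Scnn1b and Scnn1g (r = 0.87, permutation p = 9.0e-05; rho = 0.83, p = 5.7e-04), with r of 0.82 without the 2 libraries farthest from the Scnn1b median and of 0.86 within treatment groups; adjusted over 45 pairs, p was 0.0015 for r. Against the surface set, Scnn1g had r of -0.04 with Slc9a2 and with Car4 and of -0.31 with Aqp8 (permutation p = 0.882, 0.885 and 0.299). Car1 and Cftr were opposed (r = -0.77, permutation p = 0.0023; rho = -0.73, p = 0.0070), but r was -0.52 without the 2 farthest libraries. Of all genes tested in colon, those with a pattern most like that of Scnn1b were Polk (r = 0.91 over 13 libraries), Hif3a (0.91), Sh3pxd2a (0.90), Scnn1g (0.87) and Snx16 (0.87). Among the 5 most like Slc26a3 were Bsdc1 (0.95), Phlpp2 (0.93), Mtf1 (0.92) and Fbxo42 (0.91).

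Some regulators of the channel followed Scnn1g over the same libraries. Of 54 relations of the 3 subunits with 18 regulators, 10 had an adjusted p below 0.05 for r and 4 of these also for rho. For Scnn1g these were 5 and 3 of 18. The share of all genes with such a relation to a subunit was not counted, so these counts have no background beside them. Scnn1g went with Sgk1, the aldosterone- and glucocorticoid-induced kinase (r = 0.86, permutation p = 2.8e-04; rho = 0.92, p = 3.0e-05), with Hsd11b2, the enzyme that inactivates glucocorticoid in aldosterone target cells (r = 0.86, p = 1.6e-04; rho = 0.89, p = 1.4e-04), and with the clock and glucocorticoid target gene Per1 (r = 0.85, p = 3.5e-04; rho = 0.87, p = 2.5e-04). The adjusted p for r was 0.0063 for each of these. Without the 2 farthest libraries r was 0.81 to 0.87, and within treatment groups 0.80 to 0.82. For the receptor gene Nr3c2 the relation to Scnn1g did not pass (r = -0.14, permutation p = 0.650), nor did it for Nedd4l (r = -0.14, permutation p = 0.696).

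**Figure D5:**
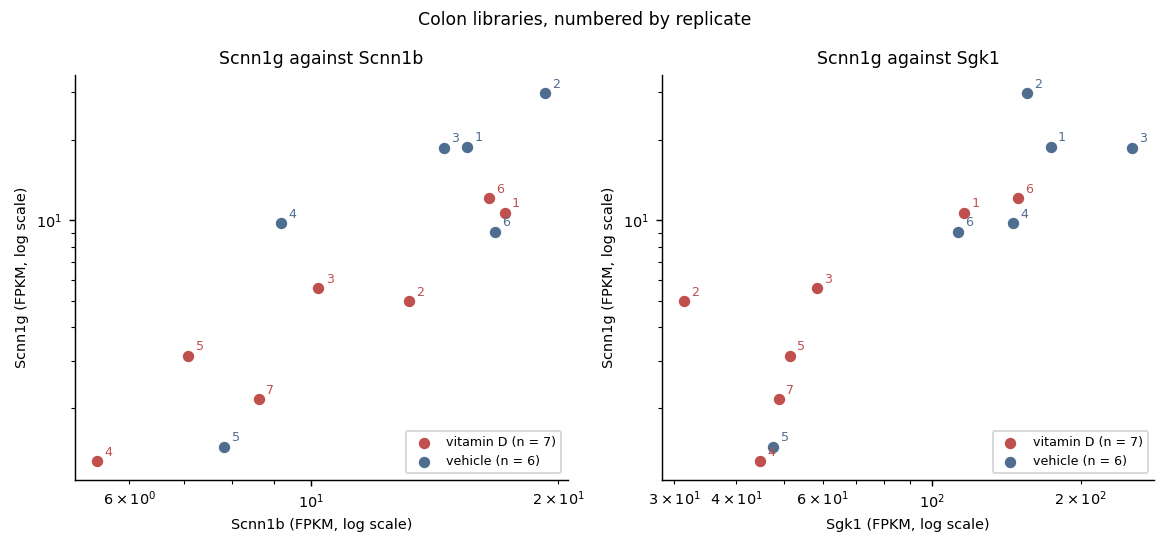
Scnn1g against Scnn1b and against Sgk1 in the 13 colon libraries, FPKM on log axes, vitamin D in red and vehicle in blue, each point numbered by replicate. Vehicle replicates 1, 2 and 3 have the highest Scnn1g and Sgk1, and vehicle replicate 5 lies among the low vitamin D libraries.

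Sgk1 itself stood at 31.4, 51.5 and 149 FPKM in vitamin D colon and at 47.6, 151 and 254 FPKM in vehicle colon (-1.09 ± 0.40, adjusted p = 0.403). In crypts it stood at 3.17, 12.5 and 49.8 FPKM with vitamin D against 3.97, 97.4 and 192 FPKM with vehicle (-2.15 ± 0.87, adjusted p = 0.263), but was called lower in the block fit (adjusted p = 0.0422). In villi it stood at 16.9, 51.8 and 121 FPKM with vitamin D against 21.3, 89.6 and 482 FPKM with vehicle (-1.04 ± 0.75, adjusted p = 0.655). The groups overlapped in each tissue. Nr3c2 averaged 43.4 ± 9.0 FPKM in vitamin D colon and 40.1 ± 8.8 in vehicle colon (0.11 ± 0.17, adjusted p = 0.912), and Nedd4l averaged 21.1 ± 9.95 in vitamin D colon and 16.02 ± 1.35 in vehicle colon (0.30 ± 0.20, adjusted p = 0.828). In villi Nedd4l had 0.27 ± 0.14 (adjusted p = 0.478), and passed as higher with the block (adjusted p = 0.0442).

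The wider pathway was followed in 6 lists. In colon none of 59 genes tested passed limma, against 0.823% of all genes, and 12 had an unadjusted p under 0.05, against 8.05%. The authors' deposited table called 2 of the 71 listed genes, against 1.64%. These were Tsc22d3, a glucocorticoid-induced leucine zipper gene, and Slc4a4, the basolateral sodium-bicarbonate cotransporter, both lower. By list the counts were 0 of 18 channel regulators (median log2 fold change -0.08), 0 of 13 pump, potassium channel and basolateral genes (-0.25), 0 of 10 other apical exchangers and scaffold genes (-0.24), 0 of 8 other anion channel and cGMP genes (-0.03), 0 of 7 other carbonic anhydrases (0.18) and 0 of 3 other aquaporins (0.02), where the median over all genes was 0.00. In crypts 1 of 53 passed, against 1.46% of all genes: Car8, which encodes a carbonic anhydrase-like protein without the enzyme activity. There 16 of 53 had an unadjusted p under 0.05, against 15.3%. The authors' deposited table called 9 of the 71 listed genes, against 4.28% of all genes with an adjusted p there. How many listed genes had an adjusted p, and the share of all genes called lower, were not counted. Car8 was higher and the other 8 lower, among them Sgk1, Hsd11b2, Tsc22d3, Wnk4, Guca2b, Clcn2 and Slc4a4. Car8 stood at 3.93 to 6.16 FPKM in vitamin D crypts and 2.05 to 3.20 in vehicle crypts (0.94 ± 0.13, adjusted p = 0.00175). All 6 vitamin D libraries lay above all vehicle libraries, but the share of all genes without overlap was not counted. With the block, which called 4.14% of all genes, 4 more passed there, all lower: Hsd11b2 (-0.72, adjusted p = 0.0340), Tsc22d3 (-0.73, adjusted p = 0.0355), Sgk1, and Guca2b (-1.41, adjusted p = 0.0296), the uroguanylin gene. The crypt counts were 0 of 16, 0 of 12, 0 of 9, 0 of 6, 1 of 5 and 0 of 5 in the order of lists above, with medians of -0.16, -0.19, -0.07, -0.34, -0.08 and -0.26.

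In villi 1 of 50 passed, against 2.47% of all genes, and 8 had an unadjusted p under 0.05, against 12.2%. The gene was Spint1, an inhibitor of the membrane proteases that cleave and open the sodium channel. It stood at 259 to 376 FPKM in vitamin D villi and 213 to 229 in vehicle villi (0.45 ± 0.09, adjusted p = 0.0125). The groups did not overlap, but the share of all genes without overlap was not counted. Spint1 was the only gene of these lists called in the authors' deposited table. With the block, which called 3.51% of all genes, Slc9a3r1, the scaffold that binds Slc9a3 at the brush border, also passed as higher (0.44 ± 0.09, adjusted p = 0.0401). The villus counts were 1 of 15, 0 of 12, 0 of 9, 0 of 6, 0 of 4 and 0 of 4, with medians of -0.10, -0.16, 0.24, -0.21, 0.06 and -0.21. The lists of cell markers were checked the same way. In colon none of 61 genes tested passed, against 0.823% of all genes, and 8 had an unadjusted p under 0.05, against 8.05%. The authors' deposited table called 1 of the 76 listed markers there, Hnf4g, as lower, against 1.64%. In crypts 1 of 47 passed, the enterocyte transcription factor gene Gata4 (0.45 ± 0.10, adjusted p = 0.0471), against 1.46%, and 8 had an unadjusted p under 0.05, against 15.3%. The authors' deposited table called 5 of the 76 there, against 4.28%, with Gata4 and Myc higher and Lgr5, Sis and Hnf4g lower. In villi none of 44 passed, against 2.47%, and 6 had an unadjusted p under 0.05, against 12.2%. The authors' deposited table called 2 of the 76 there, against 3.6%, Alpi higher and Cdx1 lower. The median log2 fold change of the 9 smooth muscle and fibroblast genes in colon was 1.35, with none called. That of the surface colonocyte genes was -0.20 in colon, -0.29 in crypts and -0.19 in villi (11, 10 and 11 tested), that of 10 crypt base and cell division genes was 0.13 in colon and 0.19 in crypts, and that of 10 enterocyte genes was -0.49 in crypts and 0.18 in villi. With the block, 1 of 61 marker genes passed in colon, Ascl2, as lower, against 1.27% of all genes. In crypts 2 of 47 passed as lower, Hnf4g and Sis, and 2 as higher, Myc and Gata4, against 4.14%. In villi 1 of 44 passed, Alpi, as higher, against 3.51%. In colon the medians were -0.29 for 5 colon position genes, -0.28 for 8 enterocyte genes, -0.03 for 7 goblet cell genes, -0.32 for 5 Paneth cell genes, 0.17 for 5 immune and endothelial genes and 0.86 for the 1 neuron and glia gene tested.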

How the data were processed

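The files hold 1 FPKM table per tissue, deposited by the authors, with 21441 genes, and the authors' comparison tables, which give per gene a mean normalised signal, a deposited log2 fold change with its error, and the authors' p-value, raw and adjusted, per the file headers. The submitters' processing notes name kallisto 0.45.0, DESeq 1.28.1, DESeq2 and the build mm9; the sources used here do not say which tool made which column. Depth came from the steps between low FPKM values: 73.1% to 91.5% of values worth under 30 reads lay within 0.05 of a whole read.

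A gene was tested in a tissue when at least 6 libraries had an FPKM of 1 or above. Limma 3.58.1 in R 4.3.3 (empirical Bayes, trend) compared vitamin D with vehicle on log2(FPKM + 0.5) in each tissue, and responses between tissues in 1 fit over 38 libraries. Benjamini-Hochberg adjustment covered all genes tested. The scripts were tested on simulated data. The 10 genes and the 15 context lists (140 of 146 genes matched, the others not analysed here) were chosen with earlier results of these data known. All 10 genes are named, with Nr3c2, Sgk1, Nedd4l, up to 4 called genes of a list per tissue, and the 5 genes most correlated with Scnn1b and with Slc26a3. Per1, Hsd11b2 in colon, and genes called only with the block or in the authors' tables were named after their values were seen. Some genes are not reported here.

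Replicate numbers are those of the sample titles. Same-numbered vitamin D and vehicle libraries deviated together in every pair in crypts (correlations of 0.119 to 0.545) and villi (0.102 to 0.465). All were over the limit of 0.1 used here, so numbers were taken to pair them. In colon (0.057 to 0.572) all were positive but not all over it, so no pairs were taken. The labels used here state no pairing, so it was inferred from these same data. In villi the 2 libraries titled replicate 6 carry the numbers 1 and 6 in their column names. Limma calls made only with the block rest on this choice. Of 12 libraries in each tissue, 4 in colon, 6 in crypts and 7 in villi correlated best with their own number. Permutation p-values are two-sided. Libraries of a group differed beyond sampling noise in every pair, with a chi-square per degree of freedom of 12.7 or more. Upstream windows are from RefSeq on GRCm38.p6 and were not joined to the files' coordinates. Alternatives were other pseudocounts, filters, scalings and covariates, and leaving out libraries.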

Additional observations from a re-analysis of the deposited data

Results flagged for a closer look

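In 13 of the 58 groups of 6 or 7 libraries checked, 1 library lay far from the rest, with a gap to its nearest neighbour above Dixon's 95% limit for the group's range (0.625 for 6 and 0.568 for 7 libraries); chance flags about 1 in 20 groups, and the groups share libraries. In colon, vitamin D replicate 6 held Slc26a3 at 1121 FPKM, and vehicle replicate 6 held Slc9a2 at 239 FPKM and Slc9a3 at 207 FPKM. In villi, vitamin D replicate 7 held Car1 at 51.6 FPKM, and vehicle replicate 6 held Car1 at 75.9 FPKM, Scnn1b at 0.267 FPKM and Scnn1g at 0.158 FPKM. In crypts, vitamin D replicate 2 held Cftr at 41.3 FPKM and vitamin D replicate 5 held Car1 at 6.62 FPKM. Vehicle crypt libraries stood out for Scnn1a in replicate 5 (9.92 FPKM), Scnn1b in replicate 3 (0.0247 FPKM), Scnn1g in replicate 6 (0.102 FPKM) and Aqp8 in replicate 2 (0.237 FPKM). For the genes near 0 the other libraries were listed at or close to 0.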

How the results depend on the processing

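Results were recomputed under other pseudocounts, without the low-value filter, with quantile or median scaling, with covariates, in 1 fit over 38 libraries, in plain-named libraries alone (columns whose names carry no leading sample number or hyphen) and without each library. In colon, 0 of 10 genes were called under every setting run, the fit with the replicate number as a block included (147 calls among all genes, against 95 without it; 4 of 12 libraries correlated best with their own number). In crypts, where 1.46% of all genes were called, the count of 0 became 2 with the replicate block by titles or by column names (4.14% of all genes) and with a term for the style of the column names (3.64%), and 1 with quantile normalisation (1.78%), with the Xist pattern as a covariate (chosen after seeing the data; 2.53%) and in the fit over 38 libraries (1.83%); without 1 library it was 0 to 2, with 2 only without vehicle replicate 4 (9.91%). In villi, where 2.47% were called, the count of 1 became 3 with the replicate block (3.51%), 2 with the name style term (3.39%), and 0 without the filter (1.20%), in plain-named libraries (92 of 9177 genes), in the fit over 38 libraries (2.42%) and without the libraries that stood apart (chosen after seeing the data; 1.77%), and it was 1 with the block by column names (2.68%); without 1 library it was 0 to 1. The cause was not tested. The 3 counts of differing responses were 0 under every alternative run. Signs turned for values that were not called: Aqp8 in colon was 0.23 in plain-named libraries, 0.018 with the Xist covariate and 0.30 without the libraries that stood apart. Scnn1a in villi was 0.041 with the block, 0.022 with the name style term and 0.015 without the libraries that stood apart; Car1 in villi (-0.61 ± 1.10 over all libraries) was 0.13 in plain-named libraries and Car4 -0.048 with that term. In plain-named libraries, colon minus villi was 0.093 for Slc9a3 and 0.029 for Slc26a3, and crypts minus villi 0.067 for Cftr. Without 1 library, Aqp8 in colon ran over -0.31 to 0.15, Slc9a2 in crypts over -0.075 to 0.20, Scnn1a in villi over -0.13 to 0.054, Car1 in villi over -1.17 to 0.058 and Car4 in villi over -0.20 to 0.42; colon minus villi for Slc26a3 over -0.25 to 0.062, colon minus crypts for Cftr over -0.11 to 0.065 and crypts minus villi for Scnn1g over -0.037 to 0.070. The count of genes highest in colon was 9 with medians and in plain-named libraries. At this depth Scnn1b, Scnn1g and Aqp8 in the small intestine rest on few reads.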

Other observations

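The labels call the sexes pooled. In colon 6 libraries had Ddx3y above Xist and 7 had Xist above Ddx3y. The 6 were vehicle replicates 4, 5 and 6 and vitamin D replicates 4, 6 and 7. They include every colon library whose column name carries a leading number, so name style and this split cannot be fully told apart. The genes of the surface set are given by this split; its sides are not groups of the study and were not tested. Aqp8 stood at 74.6 to 185 FPKM in the 6 and at 36.9 to 83.5 FPKM in the 7 libraries, Car4 at 1618 to 2434 and 1077 to 1755 FPKM, Slc9a2 at 165 to 239 and 96.3 to 178 FPKM, and Slc26a3 at 511 to 1121 and 300.4 to 674 FPKM. Scnn1g had medians of 5.63 and 10.7 FPKM in the 6 and the 7 libraries.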
